A study of Homo sapiens with 12 samples.

Results

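The genes described here are LBP and 9 genes of the Toll-like receptor (TLR) pathway, CD14, LY96, TLR2, TLR3, TLR4, TLR6, MYD88, IRAK1 and IRAK4, 10 of the 58174 Ensembl gene identifiers in each table. They were taken by their symbols. LBP was selected on its measured TPM in U87 cells, and the others were named with results of the same comparisons known, so the values of all 10 are given as a description, with no p; where a count of members past a call rule is given, it is a description too.

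mRNA was sequenced in 2 glioblastoma cell lines, U87 (U-87 MG) and U118, each as sensitive and as resistant cells, with 3 libraries in each of the 4 groups and 12 in all. Per the study's methods, cells of each line were first depleted of CD133 and CD15 positive cells and kept in serum and BMP2, and the resistant cells, called aggregation cells there, were those that formed after treatment with 50 µM temozolomide (TMZ), the alkylating drug used against glioblastoma. Sensitive cells, the control cells of the study, were CD133-CD15- cells of the same line without TMZ. Each line is a single cell line, and the labels do not say whether libraries of a group came from separate cultures, so p-values measure only the spread between these libraries, which may be technical.

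Toll-like receptors are membrane sensors of microbial molecules and of molecules released by damaged cells. LBP, made mainly by the liver in the acute-phase response, moves bacterial lipopolysaccharide to CD14, which hands it to LY96 (MD-2) bound to TLR4. The adaptor MYD88 then assembles the kinases IRAK4 and IRAK1, and the signal runs through TRAF6 and the IKK complex to NF-kappa B and cytokine genes; TLR3, which senses double-stranded RNA, signals through TICAM1 instead. In brain the pathway is best known from microglia, the resident macrophages.

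In overall profile the libraries labelled U118 resistant were nearer to both U87 groups than to those labelled U118 sensitive. Whether these labels are right was not tested, and every comparison of resistant with sensitive U118 cells, and of the change between the lines, rests on them and has no value without them. Over 16382 genes, their Spearman correlation with U118 sensitive libraries was 0.808 to 0.839, against 0.895 to 0.909 with U87 sensitive and 0.907 to 0.913 with U87 resistant libraries. The U118 sensitive libraries were far from every other group, at 0.783 to 0.831 with U87 sensitive and 0.789 to 0.817 with U87 resistant libraries. These are descriptions across genes, which are not independent replicates. The mean of the U118 resistant libraries on the log2 scale was nearest to U118 sensitive for 24.2% of these genes and for 1 of 8 tested members, TLR3. The study's RT-qPCR found IL1a, IL1b, IL6, IL8 and other genes rising with time in cells treated with TMZ for days. The resistant libraries are of aggregation cells, which formed only weeks later, so the times are not alike. Means of IL1A, IL1B, IL6 and CXCL8 (IL8) were 0.527, 0.650, 1.39 and 3.01 TPM in libraries labelled U118 sensitive. In those labelled U118 resistant they were 2.87, 91.4, 7.94 and 13.8 TPM. The labels were not tested with these values, which cannot show whether the labels are right. The share of TPM in mitochondrially encoded genes was 12.9 to 16.9% in U87 sensitive and 22.2 to 23.7% in U87 resistant libraries. U87 sensitive replicate 2 stood apart, with 12.9% and 14070 genes at 1 TPM, against 16.9 and 16.5% and 13448 and 13668 genes. It was also the highest of its group in HMGB1 and in every member detected in that group other than IRAK1. These were CD14, LY96, TLR2, TLR3, TLR4, TLR6, MYD88 and IRAK4. In U118 single libraries stood apart too. Sensitive replicate 3 had 19.7% against 7.42 and 8.55% in the others, and resistant replicate 1 had 13.2% and 15193 genes at 1 TPM, against 29.9 and 26.1% and 13270 and 13545 genes. These 2 U118 libraries also lay apart from their groups in IRAK1 and, for resistant replicate 1, in TLR4 and IRAK4. The part of the mitochondrial share in the results was not tested. Read depth is unknown, since TPM keeps none.

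Of 9 glial and mesenchymal markers, 5 (VIM, NES, SLC1A3, CHI3L1, CD44) were at 1 TPM or more in every library, while the astrocyte marker GFAP had group means of 0.35 to 0.47 TPM and SOX2 was listed at 0 in all U87 libraries. OLIG2 was at 1 TPM or more in every U87 library and at 0 to 1.05 TPM in U118 libraries, and S100B was listed at 0 in all U87 sensitive libraries and reached at most 0.281 TPM elsewhere. Of 10 myeloid markers, AIF1, P2RY12 and TYROBP were listed at 0 in all 12 libraries, and only CSF1R reached 1 TPM in every library of a group. The summed myeloid level was 6.35 to 7.40 TPM in U87 sensitive, 5.47 to 5.98 in U87 resistant, 1.71 to 2.05 in U118 sensitive and 10.8 to 17.1 in U118 resistant libraries, mostly CSF1R. The 5 hepatocyte markers summed to at most 0.412 TPM in U87 sensitive and 0.370 TPM in U87 resistant libraries, where ALB, TTR and CYP3A4 were listed at 0, and to 0.00718 to 0.263 TPM in U118 sensitive and 0.665 to 2.262 TPM in U118 resistant libraries.

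LBP (ENSG00000129988, chr20:38346356-38377023, plus strand, GRCh38) was detected in U87 resistant cells and nearly nowhere else. It was listed at 0 in all 3 U87 sensitive libraries and at 10.8, 12.8 and 11.2 TPM in the U87 resistant libraries. In U118 it was listed at 0.0442, 0 and 0 TPM in sensitive libraries and at 0 in all 3 resistant libraries. The mean of the U87 resistant libraries was 11.6 ± 1.05 TPM (SD, n = 3), above all 9 other libraries. No fold change is given, since the U87 sensitive group is listed at 0. A listed 0 can be a failed estimate. None of 131 genes of the ribosome, proteasome, RNA polymerase II and translation initiation factor 3 was listed at 0 in any library. Some subunits were left out of this set by name, and it was not matched to the level of LBP. It therefore cannot show whether the zeros of LBP are real. In bulk RNA, more cells with LBP and more LBP RNA per cell cannot be told apart.

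**Figure D1:**
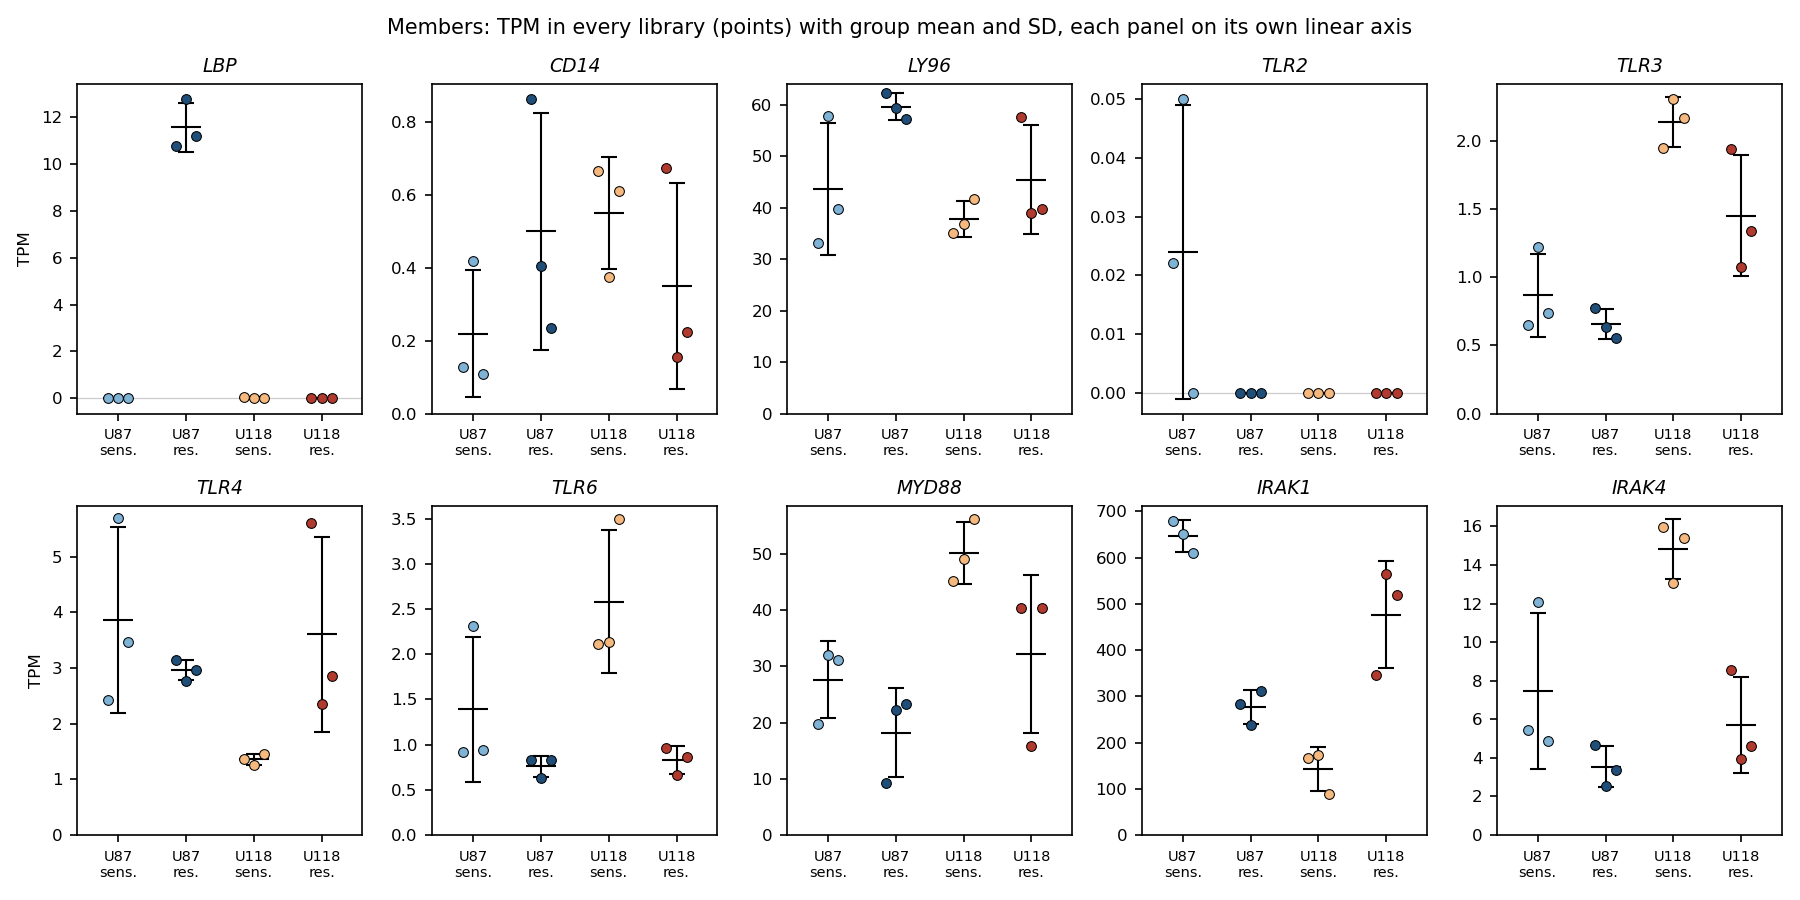
TPM of the 10 members in each of the 12 libraries (points, 3 a group, in the order of replicate 1 to 3), with the group mean and SD as a bar; sens. is sensitive and res. is resistant, and each panel has its own linear axis. LBP stands at 10.8 to 12.8 TPM in U87 resistant libraries alone, and IRAK1 is lower in resistant U87 but higher in resistant U118 libraries.

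BPI, the bactericidal member of the LBP family, lies 8.85 kb before LBP on chromosome 20 and was listed at 0 in all 12 libraries. Of 37 annotated genes within 500 kb of LBP, 18 reached 1 TPM in at least 1 library. Of the 12 that passed the U87 filter (1 TPM in 3 or more of the 6 libraries), 1, TGM2, had every resistant library above every sensitive library, an order held by 13.6% of all 13845 genes tested in U87, and TGM2 had the same order in U118. TGM2, a transglutaminase 180 kb before LBP, had 36.2, 33.4 and 35.7 TPM in U87 sensitive and 107, 102 and 105 TPM in U87 resistant libraries. Its U118 values were 17.5, 21.1 and 18.6 TPM in sensitive and 232, 153 and 158 TPM in resistant libraries, where LBP was listed at 0. Another 9 of the 12 had every U87 resistant library below every sensitive one, against 39.8% of all genes tested. Among these 9 are SNHG17 and SNORA71A, SNORA71B and SNORA71C, which lie within SNHG17 on the same strand, so the 9 are not independent.

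Genes whose pattern over the 12 libraries was among the most like that of LBP were DLX5, KEL, ADAM7 and VIT, by the smallest root-mean-square difference in centred log2(TPM + 1). The difference was 0.454 for DLX5, 0.529 for KEL, 0.548 for ADAM7 and 0.667 for VIT. DLX5, a homeobox transcription factor of bone and forebrain development, was at 6.04, 3.87 and 6.89 TPM in U87 resistant libraries and listed at 0 in the other 9. KEL, the Kell blood group metalloprotease, was at 17.6, 19.7 and 16.3 TPM there, at 0 to 0.248 TPM in U87 sensitive and at 0.930 to 1.98 TPM in U118 libraries. Only LBP, DLX5 and A2M, a protease inhibitor of plasma, had at least 1 TPM in each U87 resistant library and under 0.1 TPM in each of the other 9; the limit of 0.1 TPM was chosen after the values of LBP were seen. A2M averaged 1.55 ± 0.445 TPM there (SD, n = 3).

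Of the proteins that receive the ligand from LBP, the CD14 gene was barely detected. CD14 (ENSG00000170458, chr5:140631728-140633701, minus strand), the lipopolysaccharide co-receptor of monocytes, was under 1 TPM in every library. It was at 0.129, 0.420 and 0.108 TPM in U87 sensitive and 0.862, 0.404 and 0.234 TPM in U87 resistant libraries, and at 0.666, 0.376 and 0.610 TPM in U118 sensitive and 0.673, 0.154 and 0.223 TPM in U118 resistant libraries. The groups overlapped in both lines. LY96 (ENSG00000154589), by contrast, was the second most abundant member in 3 of the 4 groups and followed MYD88 in U118 sensitive cells. LY96 was at 33.1, 57.9 and 39.8 TPM in U87 sensitive and 62.4, 59.5 and 57.2 TPM in U87 resistant libraries. Its U118 values were 35.0, 36.8 and 41.7 TPM in sensitive and 57.7, 38.9 and 39.8 TPM in resistant libraries. Sensitive and resistant libraries overlapped in both lines, and the log2 fold change was 0.48 (SE 0.19) in U87 and 0.24 (SE 0.23) in U118, or 0.79 in U118 after median-ratio scaling of the libraries. The U87 value was 0.74 after that scaling, 0.31 without U87 sensitive replicate 1 and 0.70 without U87 sensitive replicate 2. U118 resistant replicate 1 was the highest of its group, and without it the U118 value was 0.06.

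Among the receptors, TLR4 was the only one at 1 TPM or more in all 12 libraries. TLR4 (ENSG00000136869, chr9:117704175-117724730, plus strand), the lipopolysaccharide receptor, was at 2.42, 5.69 and 3.46 TPM in U87 sensitive and 3.14, 2.77 and 2.97 TPM in U87 resistant libraries. These groups overlapped, with a log2 fold change of -0.24 (SE 0.25) that became 0.02 without U87 sensitive replicate 2, its highest library. Without U87 sensitive replicate 1, the lowest of the sensitive libraries, the value was -0.47. In U118 TLR4 was at 1.36, 1.26 and 1.46 TPM in sensitive and 5.60, 2.35 and 2.86 TPM in resistant libraries. Every resistant U118 library was above every sensitive one, an order held by 15.7% of genes tested in U118. The ratio of means was 2.65-fold and the log2 fold change was 0.90 (SE 0.27), or 0.61 without U118 resistant replicate 1. The value was past the call rule used for the lists (limma adjusted p under 0.05 and a size of at least 1) with a pseudocount of 0.1 (1.24), after median-ratio scaling (1.26) and without U118 resistant replicate 2 (1.10). TLR2 (ENSG00000137462, chr4:153684070-153705702, plus strand), which senses bacterial lipoproteins, was at 0.0221 and 0.0499 TPM in U87 sensitive replicates 1 and 2 and listed at 0 in the other 10 libraries.

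TLR3 and TLR6 had means under 3 TPM in every group, and neither passed the call rule in U118. TLR3 (ENSG00000164342, chr4:186069152-186088069, plus strand) was at 0.650, 1.22 and 0.735 TPM in U87 sensitive and 0.772, 0.638 and 0.556 TPM in U87 resistant libraries, which overlapped. U118 cells had 1.95, 2.31 and 2.17 TPM in sensitive and 1.94, 1.08 and 1.34 TPM in resistant libraries, with no overlap by a narrow margin and a log2 fold change of -0.37 (SE 0.20). That value was -0.03 after median-ratio scaling. TLR6 (ENSG00000174130, chr4:38823715-38856817, minus strand), a partner of TLR2, was at 0.916, 2.32 and 0.943 TPM in U87 sensitive and 0.829, 0.628 and 0.826 TPM in U87 resistant libraries. In U118 TLR6 was at 2.11, 2.14 and 3.50 TPM in sensitive and 0.968, 0.660 and 0.859 TPM in resistant libraries. The TLR6 resistant libraries were below the sensitive ones in both lines. That order, which TLR3 also had in U118, was held by 39.8% of genes tested in U87 and 42.9% in U118. The U118 log2 fold change of TLR6 was -0.95 (SE 0.21), or -0.62 after median-ratio scaling. It was past the call rule with a pseudocount of 0.1 (-1.51) and without U118 resistant replicate 1 (-1.01), and without any single sensitive library TLR6 left the U118 test. TLR6 shares long stretches of sequence with TLR1, so reads could be divided between them in either direction.

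The start regions of TLR3 and TLR6 are shown because the U118 resistant libraries of both genes lay below the sensitive ones, if barely so for TLR3, and because their windows overlap few or no bases of annotated exons. IRAK4 met the same 2 reasons and is not shown, so the choice of TLR3 and TLR6 is not complete. Each is the 250 bases before the RefSeq start (GRCh38.p14), 5′ to 3′ on the gene's strand, chr4:186068906-186069155 for TLR3 and chr4:38856818-38857067 for TLR6. Capitals mark matches to the motifs searched, on both strands.
TLR3: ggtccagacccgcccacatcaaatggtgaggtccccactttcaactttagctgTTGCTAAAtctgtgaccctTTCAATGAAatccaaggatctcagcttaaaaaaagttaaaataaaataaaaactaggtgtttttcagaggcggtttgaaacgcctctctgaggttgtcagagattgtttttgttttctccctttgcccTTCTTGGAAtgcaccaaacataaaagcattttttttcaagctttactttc
TLR6: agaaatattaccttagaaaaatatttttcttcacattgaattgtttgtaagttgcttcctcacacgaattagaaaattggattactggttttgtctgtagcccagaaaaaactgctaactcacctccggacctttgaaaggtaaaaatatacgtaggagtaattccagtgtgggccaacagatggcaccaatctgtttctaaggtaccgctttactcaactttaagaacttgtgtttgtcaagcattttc

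The motifs searched were NF-kappa B (GGG, any 3 letters, then TTCC), STAT (TTCNNNGAA), C/EBP (TTGCNNAA), AP-1 (TGANTCA), the hypoxia response core (ACGTG) and the TATA box (TATAAA), none of which overlapped another in these windows. They are held by 5.67, 6.57, 9.05, 6.57, 18.5 and 10.7% of 35116 RefSeq promoter windows of the same length, in that order. The TLR3 window held 2 STAT matches, beginning at positions -178 and -50 from the start, and a C/EBP match beginning at -197, while the TLR6 window held none of the 6 motifs. Of the 8 members with a window available, TLR2 alone held the NF-kappa B letters and none held TATAAA. STAT letters were held by CD14, MYD88 and TLR3, and C/EBP letters by IRAK4 and TLR3. AP-1 letters were held by CD14 alone, and ACGTG by IRAK4 and TLR2. The 8 windows are those of CD14, TLR2, TLR3, TLR4, TLR6, MYD88, IRAK1 and IRAK4. GC content was 39.2% for TLR3, 36.4% for TLR6, 61.6% for IRAK4 and 82.4% for IRAK1, against a median of 58.0% over all windows. A match is a description of letters and not a binding site.

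MYD88 and IRAK4, which form the core of the signalling complex, had lower means in resistant cells of both lines. MYD88 (ENSG00000172936, chr3:38138478-38143022, plus strand) was at 19.7, 32.1 and 31.1 TPM in U87 sensitive and 9.17, 22.2 and 23.3 TPM in U87 resistant libraries, which overlapped. U118 libraries had 45.1, 49.2 and 56.2 TPM in sensitive and 40.4, 15.9 and 40.3 TPM in resistant libraries, which did not overlap. Resistant libraries lay below sensitive ones for 42.9% of genes tested in U118. The log2 fold change was -0.65 (SE 0.36) in U87 and -0.73 (SE 0.35) in U118. In each line a single resistant library was far below the other two, and without it the value was -0.24 in U87 (without resistant replicate 1) and -0.30 in U118 (without resistant replicate 2). After median-ratio scaling the U118 value was -0.19.

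IRAK4 (ENSG00000198001, chr12:43758944-43789543, plus strand), the kinase that acts first on recruitment to MYD88, was at 5.43, 12.1 and 4.86 TPM in U87 sensitive and 4.67, 2.57 and 3.35 TPM in U87 resistant libraries. In U118 it was at 16.0, 13.1 and 15.4 TPM in sensitive and 8.56, 3.93 and 4.63 TPM in resistant libraries. Resistant libraries were below sensitive ones in both lines, by a ratio of means of 2.12 in U87 and 2.60 in U118. That order was held by 39.8% of genes tested in U87 and 42.9% in U118. The log2 fold change was -0.83 (SE 0.34) in U87, or -0.47 without U87 sensitive replicate 2. In U118 it was -1.30 (SE 0.29), or -0.80 after median-ratio scaling, which is under the size used for a call.

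IRAK1 moved in opposite directions in the 2 lines. IRAK1 (ENSG00000184216, chrX:154010500-154019980, minus strand), the kinase that IRAK4 phosphorylates and that carries the signal to TRAF6, was the most abundant member per length in all 4 groups. It was at 679, 652 and 609 TPM in U87 sensitive and 283, 238 and 312 TPM in U87 resistant libraries, a 2.33-fold lower mean. In U118 it was at 167, 173 and 88.1 TPM in sensitive and 346, 564 and 520 TPM in resistant libraries, a 3.34-fold higher mean. The groups did not overlap in either line. Resistant libraries lay below sensitive ones for 39.8% of genes tested in U87 and above them for 15.7% in U118. The log2 fold change was -1.22 (SE 0.11) in U87, or -0.96 after median-ratio scaling, and 1.76 (SE 0.31) in U118, or 2.32 after that scaling. Leaving out each library in turn gave -1.31 to -1.12 in U87 and 1.45 to 1.98 in U118. The difference between the lines was not tested, since IRAK1 was chosen with these contrasts known.

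**Figure D2:**
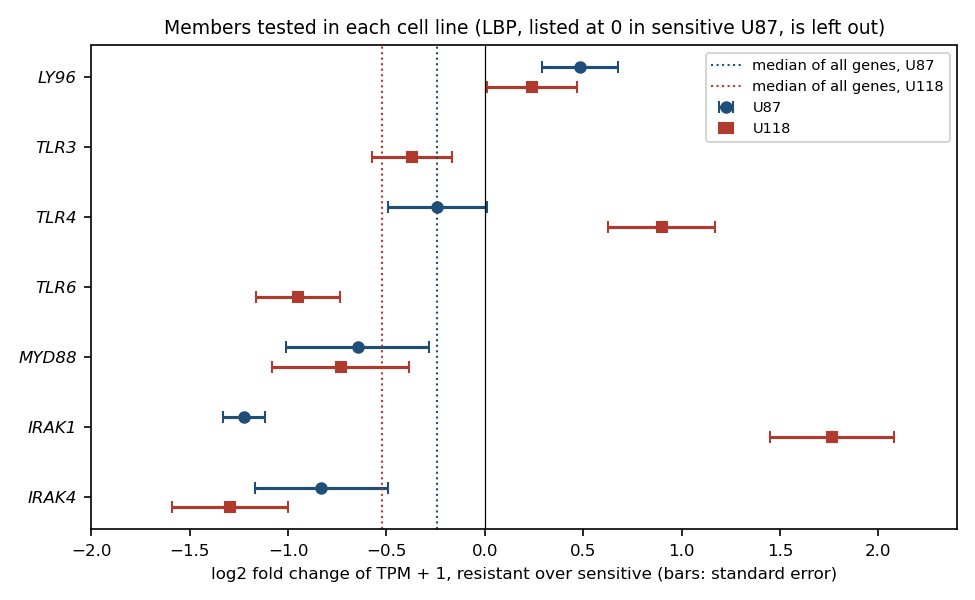
The log2 fold change of TPM + 1, resistant over sensitive, of the members that passed the filter in each line other than LBP, whose U87 sensitive libraries are listed at 0, as points with standard errors (blue circles U87, red squares U118); dotted lines are the medians of all genes tested, -0.24 in U87 and -0.52 in U118. IRAK1 lies at -1.22 in U87 and 1.76 in U118, and MYD88 and IRAK4 are below 0 in both lines.

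A gene was tested in a line when 3 or more of the 6 libraries reached 1 TPM. It was called when its limma p, adjusted by Benjamini and Hochberg, was under 0.05 and its log2 fold change was 1 or larger in either direction. LBP, LY96, TLR4, MYD88, IRAK1 and IRAK4 passed the filter in U87, LBP only through its resistant libraries, and 4 members did not. In U118, LY96, TLR3, TLR4, TLR6, MYD88, IRAK1 and IRAK4 passed, TLR6 only through its sensitive libraries, and 3 did not. Over all genes, 3.03% of 13845 were called higher and 7.79% lower in U87, and 8.64% of 15527 higher and 26.6% lower in U118. Of the members, LBP (higher, the only direction its filter allowed) and IRAK1 (lower) were past the rule in U87, and IRAK1 (higher) and IRAK4 (lower) in U118. The members were chosen with these contrasts known, and nothing is read from these counts. Median-ratio scaling changed the split over all genes from 419 higher and 1078 lower to 659 and 543 in U87, and from 1341 and 4134 to 2284 and 2025 in U118, since it shifted the all-gene median on the log2 scale from -0.24 to -0.02 and from -0.52 to -0.05. Without any single U118 resistant library, 5.23 to 5.77% of genes were called higher in U118, and 38.4% were called lower without resistant replicate 1.

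The sensitive cells of the 2 lines were compared to ask how much of the pathway each line held before TMZ, and cell line and table cannot be told apart. The contrast uses the same sensitive libraries as those the members were chosen on, so its values are a description as well. Of 8 members in the 12-library fit, IRAK1 alone was past the call rule, with a log2 difference (U118 minus U87) of -2.23 (SE 0.25), where 36.6% of 16382 genes were. TLR4 was at -0.99 (SE 0.28), IRAK4 at 0.997 (SE 0.33), MYD88 at 0.86 (SE 0.39), TLR3 at 0.76 (SE 0.17), TLR6 at 0.61 (SE 0.22) and LY96 at -0.16 (SE 0.21). The LY96 value changed sign to 0.06 without U87 sensitive replicate 2. Over all alternatives run, LY96 ranged from -0.54 to 0.06, MYD88 from 0.48 to 0.98 and TLR6 from 0.35 to 0.93. LBP, at 0.02 (SE 0.12), entered this fit only through U87 resistant libraries, which the contrast does not use. For TLR4 and IRAK4 the side of the size of 1 depended on the setting. TLR4 passed the rule with 5 alternatives, -1.35 with a pseudocount of 0.1, -1.18 after median-ratio scaling, and -1.21, -1.02 and -1.01 without U87 sensitive replicate 1, U87 sensitive replicate 3 or U118 sensitive replicate 3. IRAK4 passed it with 3, at 1.10 with that pseudocount, 1.36 without U87 sensitive replicate 2 and 1.08 without U118 sensitive replicate 2, and TLR3 with 1, at 1.25 with that pseudocount.

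Within sensitive U87 cells the order of mean levels per length was IRAK1, LY96, MYD88, IRAK4, TLR4, TLR6, TLR3 and CD14, at 647, 43.6, 27.6, 7.47, 3.86, 1.39, 0.868 and 0.219 TPM. The libraries of IRAK4 and TLR4, and those of TLR6 and TLR3, overlapped. In sensitive U118 cells the order was IRAK1, MYD88, LY96, IRAK4, TLR6, TLR3, TLR4 and CD14, at 143, 50.2, 37.9, 14.8, 2.58, 2.14, 1.36 and 0.551 TPM, and only TLR6 and TLR3 overlapped. TLR4 thus stood above TLR3 and TLR6 in sensitive U87 and below both in sensitive U118 cells.

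The other genes of the pathway were taken from a list of 64 that holds none of the members. In U87, 44 of them were tested, 6 were called higher (13.6%, against 3.03% of all genes) and 2 lower (4.55%, against 7.79%). Of the 6, 5 (CD36, BGN, IL1B, CXCL8 and CCL5) were under 1 TPM in every sensitive library and passed the filter only through resistant libraries, so that higher was the only call open to them. Over the other 39, 1 was called higher (2.56%) and 2 lower (5.13%), against 2.16% and 7.14% of the genes with at least 1 library at 1 TPM in both groups. In U118, 46 were tested, 9 were called higher (19.6%, against 8.64%) and 6 lower (13.0%, against 26.6%). There IL1B, CCL5, IRF5 and TLR1 passed through resistant libraries only, and all but TLR1 were called higher. Over the other 42, 6 were called higher (14.3%) and 6 lower (14.3%), against 5.69% and 23.5% of all such genes. The median log2 fold change of the list was -0.20 in U87 and -0.05 in U118, beside -0.24 and -0.52 over all genes. After median-ratio scaling the list medians turned to 0.03 and 0.46, beside -0.02 and -0.05 over all genes. Of the 44 tested in U87, 7 were then called higher and 2 lower, against 4.76% and 3.92% of all genes. Of the 46 in U118, 12 were called higher and 2 lower, against 14.7% and 13.0%. Genes that passed only through resistant libraries were kept in these counts, so the shares are not alike in the calls open to them.

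Of the other receptors, TLR1, TLR5, TLR7, TLR8, TLR9, TLR10 and CD180, only TLR1 passed the filter, and it was not called in either line. TLR1, which pairs with TLR2, had a log2 fold change of -0.21 (SE 0.24) in U87 and 0.64 (SE 0.17) in U118. The remaining 6 reached at most 0.0977 TPM, that of TLR9, in any library. Among accessory proteins CD36, a scavenger receptor that can present lipids to TLR2 and TLR6, was called higher in U87 (0, 0.174 and 0.0676 TPM in sensitive and 2.18, 1.98 and 2.39 TPM in resistant libraries; log2 fold change 1.56, SE 0.13). None of the 4 adaptors, TIRAP, TICAM1, TICAM2 and SARM1, was called, where 10.8% of all genes were called in U87 and 35.3% in U118. TIRAP, which brings MYD88 to TLR4, had nearly equal values in the 2 lines, -0.93 (SE 0.21) in U87 and -0.95 (SE 0.24) in U118.

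Of 18 kinases, ubiquitin ligases and their partners, 1 of 16 tested in U87 was called and 4 of 17 in U118, where 10.8% and 35.3% of all genes were called in either direction. IKBKG (NEMO, chrX:154541199-154565046), the regulatory subunit of the IKK complex, was called in both lines in opposite directions, like IRAK1, which lies on the same chromosome arm. IKBKG was at 75.1, 72.0 and 77.1 TPM in U87 sensitive and 23.8, 25.4 and 23.5 TPM in U87 resistant libraries (log2 fold change -1.59, SE 0.08). In U118 it was at 24.7, 20.6 and 22.3 TPM in sensitive and 39.1, 52.6 and 50.5 TPM in resistant libraries (1.03, SE 0.22), a call that was lost without sensitive replicate 2, resistant replicate 2 or resistant replicate 3. IKBKG has a near-identical pseudogene nearby, so its reads could be split. TAB2, an adaptor of the kinase TAK1, was called higher in U118 (1.08, SE 0.23; not called without U118 sensitive replicate 2), and UBE2N (-1.28, SE 0.27) and RIPK1 (-1.16, SE 0.27) were called lower there. UBE2N, which builds the ubiquitin chains of TRAF6, and RIPK1, a kinase downstream of TICAM1, both lost the call after median-ratio scaling.

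Of the 5 transcription factors, 0 were called in U87 and 1 in U118, where 10.8% and 35.3% of all genes were called in either direction. IRF5, which MYD88 signalling activates, was at 0 to 0.0807 TPM in U118 sensitive and 1.54 to 2.47 TPM in U118 resistant libraries (log2 fold change 1.48, SE 0.18), while in U87 it was not called (-0.96, SE 0.14). In U118 IRF5 passed the filter only through resistant libraries, so higher was the only call open to it. Among 7 inhibitors, SIGIRR, a decoy-like receptor that dampens TLR signalling, was at 0.754, 1.26 and 0.103 TPM in U118 sensitive and 11.0, 30.5 and 27.7 TPM in U118 resistant libraries (3.76, SE 0.41). TNFAIP3 (A20), a deubiquitinase that ends NF-kappa B signalling, was called higher in U87 (1.16, SE 0.16) and lower in U118 (-1.07, SE 0.22), the U118 call being lost after median-ratio scaling. Its levels were 2.02, 2.70 and 3.03 TPM in U87 sensitive against 7.33, 6.39 and 7.11 TPM in U87 resistant libraries, and 12.4, 12.1 and 13.0 TPM in U118 sensitive against 5.67, 4.90 and 5.74 TPM in U118 resistant libraries.

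Of 6 endogenous ligands of the receptors, HMGB1, a chromatin protein that signals when released, was called lower in both lines (U87 -1.63, SE 0.36; U118 -1.01, SE 0.32). The U118 call did not hold after median-ratio scaling, without a filter or without any of 4 single libraries (sensitive replicates 1 and 3, resistant replicates 2 and 3), and HMGB1 has many processed pseudogenes that could share its reads. BGN (biglycan), a matrix proteoglycan and ligand of TLR2 and TLR4, was called higher in U87, from 0.130, 0.206 and 0.166 TPM to 3.53, 4.21 and 3.25 TPM (1.99, SE 0.14). TNC (tenascin C), a matrix ligand of TLR4, was called lower in U118 (-1.82, SE 0.21) from a mean of 588 ± 61.3 TPM to 166 ± 21.0 TPM (SD, n = 3), and was at 0.03 (SE 0.07) in U87.

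Of 11 target genes of the pathway, 3 were tested in U87 and 6 in U118. The 3 in U87, IL1B, CXCL8 and CCL5, were called higher, but each was under 1 TPM in every sensitive library, so no other call was open and the count shows no direction of the group. In U118 the same holds for IL1B and CCL5. Of the other 4 there, IL6, CXCL8 and ICAM1 were called higher and PTGS2, the inducible cyclooxygenase, was called lower (-1.85, SE 0.24). Over all genes with at least 1 library at 1 TPM in both U118 groups, 5.69% were called higher and 23.5% lower. IL1B, the inflammatory cytokine, was listed at 0 in all U87 sensitive libraries and at 2.96, 2.58 and 2.84 TPM in U87 resistant libraries. In U118 IL1B was at 0.694, 0.329 and 0.927 TPM in sensitive and 107, 73.0 and 94.6 TPM in resistant libraries (log2 fold change 5.81, SE 0.26). CXCL8, a chemokine that attracts neutrophils, rose in both lines (U87 1.53, SE 0.18; U118 1.89, SE 0.23), as did CCL5 (U87 1.29, SE 0.15; U118 2.15, SE 0.41). IL6 (1.89, SE 0.23) and the adhesion molecule ICAM1 (1.44, SE 0.32) rose in U118 and were not tested in U87; PTGS2 and ICAM1 were named after their values were seen. TNF was at most 0.227 TPM and IFNB1 was listed at 0 in every library.

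**Figure D3:**
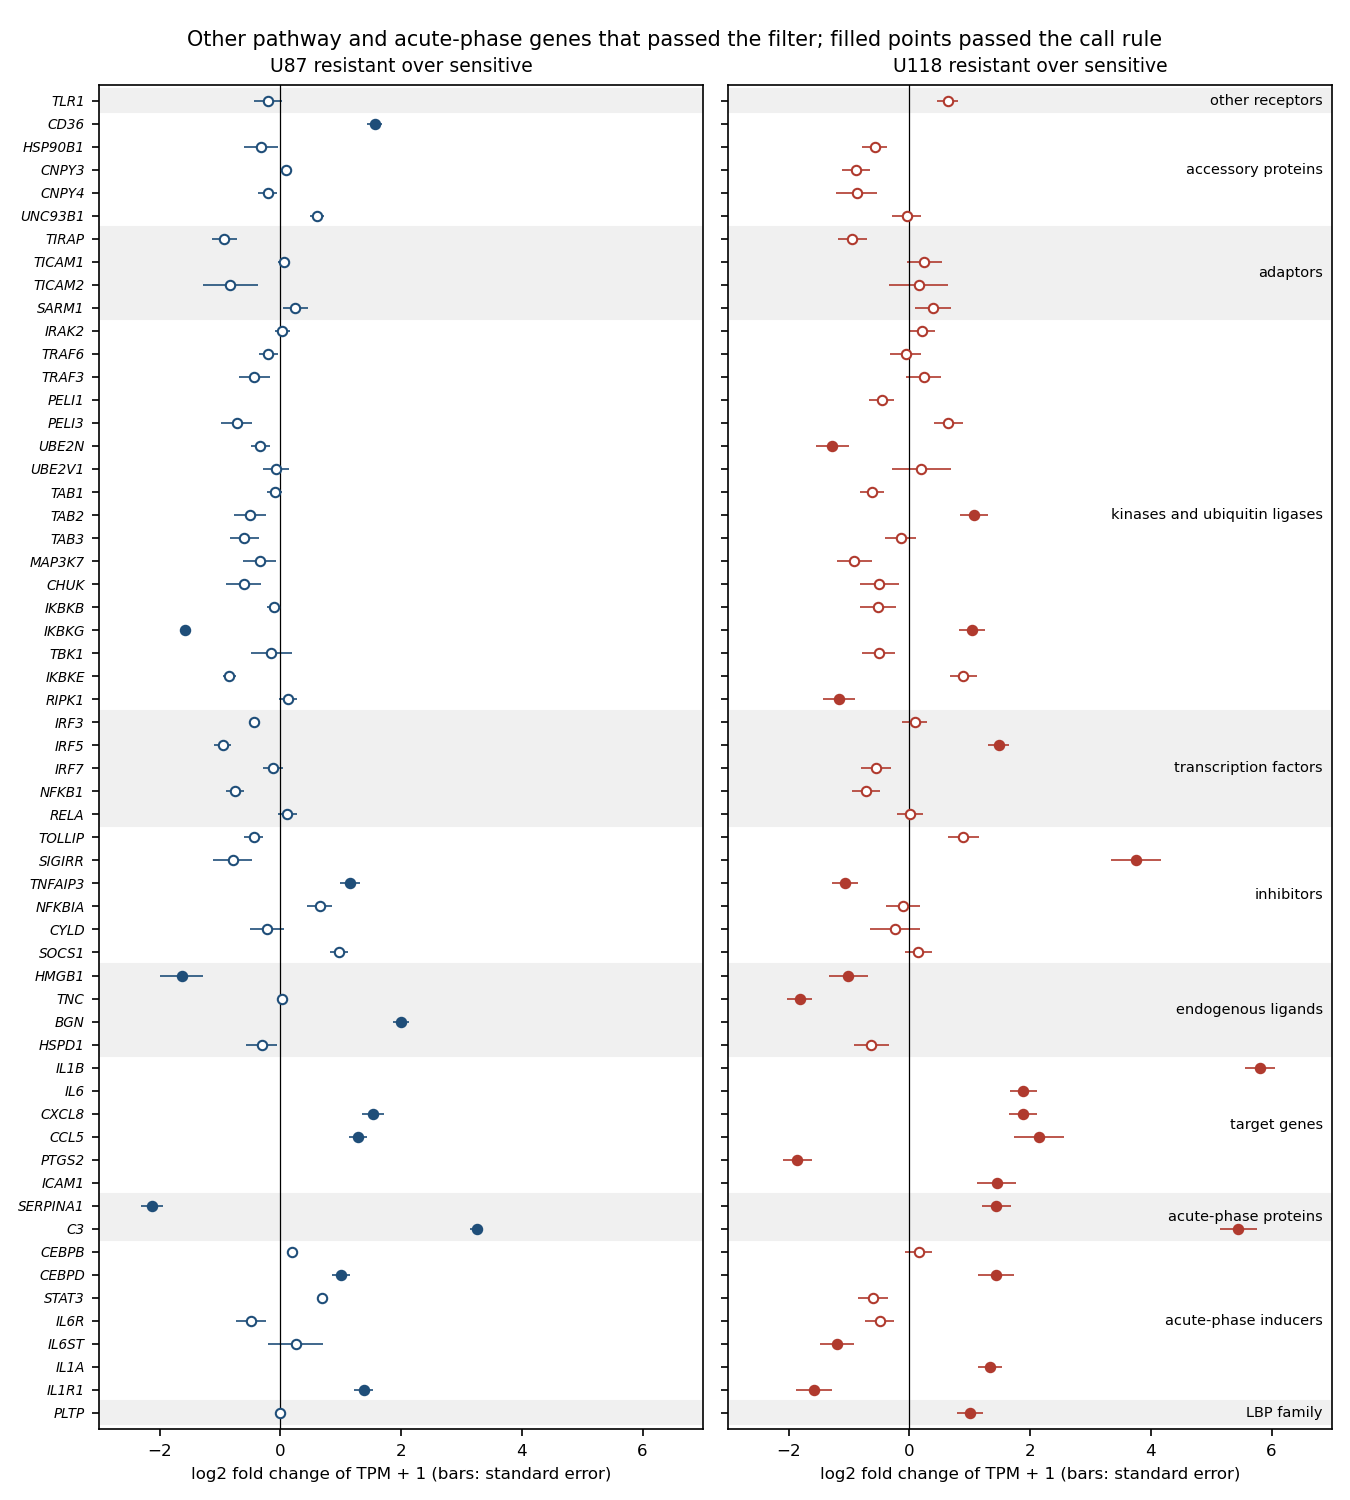
The log2 fold change of TPM + 1, resistant over sensitive, of each listed pathway and acute-phase gene that passed the filter, as points with standard errors, U87 on the left and U118 on the right; filled points passed the call rule, and IL1B in U87 is left out because its sensitive libraries are listed at 0. IL1B (5.81) and C3 (5.44) in U118 lie furthest to the right, and IKBKG and SERPINA1 lie on opposite sides of 0 in the 2 panels.

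The change itself was compared between the lines for the pathway list, in a fit over all 12 libraries. Of 48 genes tested, 16 differed (33.3%), 10 with a higher and 6 with a lower value in U118, where 30.5% of 16382 genes differed. The counts were the same after median-ratio scaling, where 30.1% of all genes differed. The 10 were PELI3, TAB2, IKBKG, IKBKE, IRF5, TOLLIP, SIGIRR, IL1B, IL6 and ICAM1, and the 6 were CD36, RIPK1, TNFAIP3, TNC, BGN and PTGS2. CD36 and BGN reached 1 TPM only in the 3 U87 resistant libraries, so a lower value in U118 was the only call open to them here. IKBKE, TOLLIP and PELI3 were not called in either line alone. For TNFAIP3 and IKBKG the U118 change minus the U87 change was -2.23 (SE 0.24) and 2.62 (SE 0.21).

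**Figure D4:**
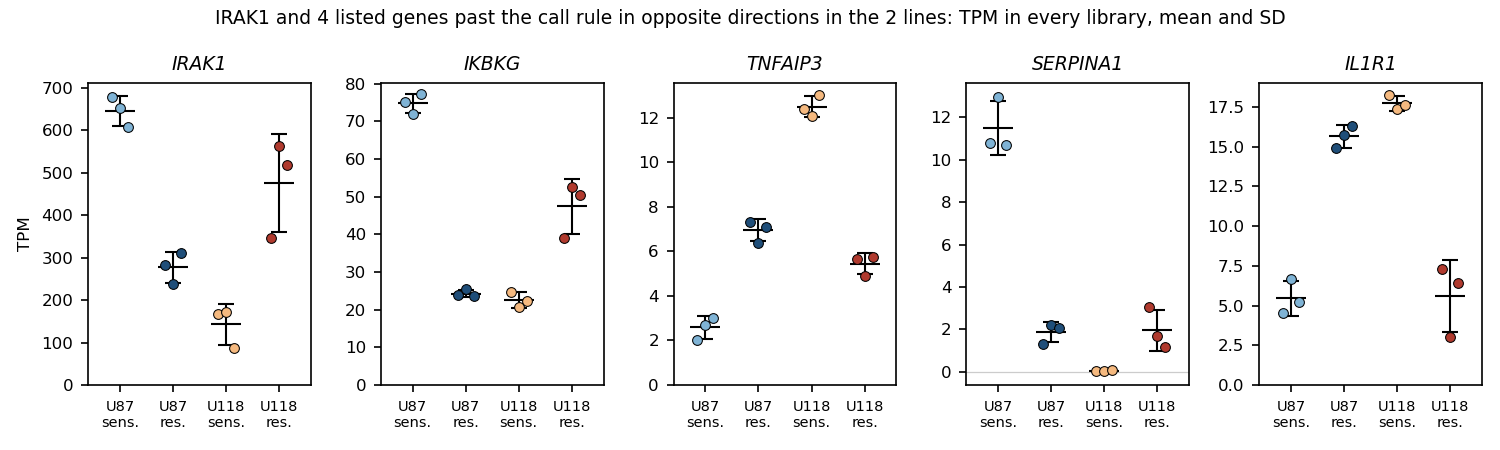
TPM of IRAK1, IKBKG, TNFAIP3, SERPINA1 and IL1R1 in each of the 12 libraries (points, 3 a group), with the group mean and SD as a bar; each panel has its own linear axis. Sensitive and resistant libraries are separated in both lines and in opposite order, so that IKBKG falls from a mean of 74.7 to 24.2 TPM in U87 and rises from 22.6 to 47.4 TPM in U118.

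Since LBP is an acute-phase protein, 24 acute-phase genes, their inducers and LBP relatives were listed too. Most were at low levels. Of 24, 14 were under 1 TPM in every library, among them HP, SERPINA3, the fibrinogen chains and HAMP, and CRP, ORM2 and BPI were listed at 0 in all 12. SAA1 (serum amyloid A), also under 1 TPM throughout, was at 0.171, 0 and 0.150 TPM in U87 sensitive and 0.479, 0.347 and 0.428 TPM in U87 resistant libraries, and at 0.141, 0 and 0 TPM in U118 sensitive and 0.891, 0.429 and 0.688 TPM in U118 resistant libraries. Its resistant libraries were above the sensitive ones in both lines, with no test at this level. That order was held by 13.6% of genes tested in U87 and 15.7% in U118. SAA1 was named outside the rule for listed genes, and values of the others under 1 TPM are not given. Nothing is read from its order. In U87, 9 were tested, 3 were called higher and 1 lower, against 3.03% and 7.79% of all genes. In U118, 10 were tested, 5 were called higher and 2 lower, against 8.64% and 26.6%; of the 5, SERPINA1 and IL1A passed the filter only through resistant libraries. Of the 14 acute-phase proteins on the list, which does not hold LBP, only C3 and SERPINA1 were tested. C3, the central complement protein, rose in both lines. C3 was at 47.0, 40.0 and 43.5 TPM in U87 sensitive and 471, 411 and 385 TPM in U87 resistant libraries (log2 fold change 3.25, SE 0.10). In U118 C3 was at 4.69, 4.64 and 5.46 TPM in sensitive and 159, 290 and 366 TPM in resistant libraries (5.44, SE 0.31).

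SERPINA1 (alpha-1 antitrypsin) fell in U87 from 10.8, 13.0 and 10.7 TPM to 1.33, 2.22 and 2.08 TPM (-2.13, SE 0.18) and rose in U118 from 0.0491, 0.0244 and 0.0781 TPM to 3.04, 1.67 and 1.15 TPM (1.44, SE 0.23). Of the inducers, CEBPD, a C/EBP factor of the acute-phase response, rose in U87 (1.01, SE 0.15) and in U118 (1.43, SE 0.30), and the U87 call was lost without any of 4 single libraries (sensitive replicates 1 and 3, resistant replicates 1 and 2). IL1R1, the receptor of IL1B and a user of the same MYD88 and IRAK proteins, rose in U87 (1.38, SE 0.16) and fell in U118 (-1.58, SE 0.30). IL1A rose in U118 (1.34, SE 0.20) and IL6ST, the shared signalling subunit of IL6 type receptors, was called lower there (-1.20, SE 0.28; not called after median-ratio scaling). PLTP, the phospholipid transfer protein and the 1 expressed relative of LBP, was at 256 to 274 TPM in all U87 libraries (-0.01, SE 0.06) and rose in U118 from a mean of 57.8 ± 10.5 TPM to 116 ± 8.8 TPM (SD, n = 3; 1.00, SE 0.21), a call lost without U118 sensitive replicate 3 or resistant replicate 3.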

How the data were processed

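The deposited tables, 1 per line, hold TPM values, which the authors made from mRNA-seq reads; the submitters' processing notes name FastQC 0.11.2, Trimmomatic 0.36, HISAT2 2.0, bedtools 2.26.0 and the build GRCh38, and the counting tool and annotation are not given in the sources used here. Identifiers were matched to GENCODE 29 for symbols and positions. Genes reaching 1 TPM in 3 or more libraries were fitted as log2(TPM + 1) with limma 3.58.1 (R 4.3.3; eBayes with trend), per line and over 12 libraries, with Benjamini-Hochberg adjustment over all genes tested. A fold change on this scale understates that of low genes. The study's general statement on statistics names Student's test for 2 groups and none for the sequencing in particular; limma was used because it pools the spread over genes. A check of the fit on simulated data failed its pass mark on signs in U118. The mark was loosened afterwards, so this check cannot support the fit.

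Members and lists were chosen with earlier results of these data known. Named were all members, up to 4 called genes of each role and line, the 5 genes most like LBP (1 is not reported here) and its neighbours within 500 kb. Promoter windows, motifs and which to print were chosen after the data were seen. Alternatives were a pseudocount of 0.1, no filter, median-ratio scaling, a minimum mean of 10 TPM, a replicate block, no fold threshold and leaving out each library. An exact permutation test of 3 against 3 libraries cannot go below 0.1 and was not used.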

Additional observations from a re-analysis of the deposited data

Results flagged for a closer look

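The change from sensitive to resistant cells differed between the lines for 16 of 48 tested pathway genes in a limma fit over all 12 libraries, a share (33.3%) close to the 30.5% of all genes tested, so that nothing particular to the pathway is read from it. All of these values compare the U118 resistant libraries, which stood nearer to U87 than to U118 sensitive libraries in overall profile; their part in the differences was not tested.

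Among the named genes with a called difference, the U118 change minus the U87 change on the log2 scale was positive for SIGIRR (4.55), IL1B (3.89), SERPINA1 (3.57), IKBKG (2.62), IRF5 (2.43), C3 (2.20), TAB2 (1.59), ICAM1 (1.31), IL6 (1.20) and PLTP (1.02). It was negative for IL1R1 (-2.96), BGN (-2.37), TNFAIP3 (-2.23), TNC (-1.85), CD36 (-1.67), PTGS2 (-1.51) and RIPK1 (-1.29). BGN and CD36 reached 1 TPM in U87 resistant libraries alone, so a negative value was the only call open to them. IL1B was listed at 0 in all U87 sensitive libraries, so its U87 change and the difference of 3.89 depend on the pseudocount. C3 rose in both lines, by more in U118, whereas IKBKG, SERPINA1, TNFAIP3 and IL1R1 moved in opposite directions.

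IRAK1 is singled out because all 3 resistant libraries were below the sensitive ones in U87 and all 3 were above them in U118, a difference of 2.99 on the log2 scale between the changes. Those orders were held by 39.8% of genes tested in U87 and 15.7% in U118, and the difference was not tested.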

How the results depend on the processing

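No called direction of a member or named gene reversed under any alternative, and 20 repeat values of named listed genes lost their call while 306 kept it, each loss named in the report beside its gene. The cause of the shifts that follow was not tested unless stated. With median-ratio scaling 0 members were called lower in U87 (3.92% of all genes) and 0 in U118 (13.0%), 2 higher in U118 (14.7%) and 2 between the sensitive lines (31.1%); pathway genes called lower in U118 numbered 2 and acute-phase genes called lower 1. A mean of at least 10 TPM tests fewer genes. In U87 it left 0 pathway genes and 0 members called higher (2.3% of all genes). It left 0 acute-phase genes called lower there (8.27%). In U118 it left 4 pathway and 2 acute-phase genes called higher (6.22%). Between the lines, 9 pathway genes differed at that mean (25.1%). With a pseudocount of 0.1, 7 pathway genes were called higher and 4 lower in U87 (4.32% and 11.1% of all genes). In U118, 2 members were called in each direction (9.67% of all genes higher, 31.1% lower). Between the sensitive lines, 4 members differed with that pseudocount (43.7%). With no fold change threshold, 9 pathway genes were called higher and 7 lower in U87 (9.43% and 29.7% of all genes). In U118, 13 were called higher and 12 lower, and 2 members in each direction (12.2% and 39.1% of all genes). Between the sensitive lines, 5 of 8 members differed with no threshold (59.3%).

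Leaving out each library in turn gave 1 to 7 pathway genes called higher and 2 to 4 lower in U87, and 5 to 9 higher and 5 to 9 lower in U118. Of all genes, 2.03 to 3.57% were called higher and 6.15 to 9.53% lower in U87. In U118 these shares were 5.23 to 9.53% and 20.1 to 38.4%. Without any single U87 resistant library, LBP, CD36, BGN, IL1B, CXCL8 and CCL5 fell out of the U87 test, since the filter asks for 3 libraries at 1 TPM, so that members called higher ranged from 0 to 1. Acute-phase genes called higher ranged from 2 to 5 in U118, where IRF5, IL1B, TLR1, CCL5, SERPINA1 and IL1A left the test in the same way without any single resistant library. Members called in U118 ranged from 1 to 2 in each direction, beside the U118 shares of all genes above. Those that differed between the sensitive lines ranged from 1 to 2 (32.4 to 40% of all genes). Pathway genes that differed between the lines ranged from 15 to 19 (25.8 to 37.6%).

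The labels tie same-numbered libraries to no shared origin, and their deviations correlated at -0.0671 to 0.0113 in U87 and 0.0512 to 0.139 in U118, not above 0.1 in every pair, so they were not taken as pairs. In U118 each sensitive library matched its own number best, a hint of pairing from the data and not from the design. With the replicate block, 6 pathway genes were called higher and 2 lower in U87, 9 and 6 in U118, and 16 differed between the lines, as without it. Of all genes, 2.99% were called higher and 7.51% lower in U87 with the block. In U118 the shares were 8.78% and 27.2%, and 30.9% differed between the lines. TPM keeps no read depth, so the precision of values under 1 TPM is unknown.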

Other observations

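Beside TNFAIP3, the 5 other tested inhibitors on the pathway list differed in direction. None of the 5 was past the call rule in U87 under the settings used for the lists, where 10.8% of all genes were. SIGIRR was at -0.79 (SE 0.32), TOLLIP at -0.44 (SE 0.16) and CYLD at -0.23 (SE 0.28) in U87. SOCS1, an inhibitor of cytokine receptors, was at 1.85 to 2.46 TPM in the 3 U87 sensitive and 4.76 to 5.71 TPM in the 3 U87 resistant libraries, a log2 fold change of 0.96 (SE 0.15). That is just under the size of 1, so its side of the rule can depend on the setting. With a pseudocount of 0.1, and after median-ratio scaling, 7 pathway genes were called higher in U87, not 6. NFKBIA was further from that size. NFKBIA, which holds NF-kappa B in the cytoplasm, had 0.65 in U87 (SE 0.21). In U118 the values were 0.15 (SE 0.23) for SOCS1 and -0.11 (SE 0.28) for NFKBIA. NFKB1, the precursor of the p50 subunit, was at -0.76 (SE 0.15) in U87 and -0.72 (SE 0.23) in U118, not past the call rule in either and beside all-gene medians of -0.24 and -0.52, while RELA, the p65 subunit, was at 0.11 (SE 0.15) and 0.01 (SE 0.22). These genes were picked after their values were seen.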
